A study of Sus scrofa with 32 samples.

Results

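The genes examined were the cytokines IL22, IL26, IL17A and IL17F, the receptor chain IL23R and the receptor chain IL22RA1, 6 of the 25880 genes in each count matrix. They were identified in the matrices by gene symbol, and all 6 were found. They were followed across 48629 cells of 8 libraries that passed minimums of unique molecular identifiers (UMIs, counted transcripts) and genes (550) and a maximum share of mitochondrial UMIs. Sources of the cytokines were looked for among T cells and innate lymphoid cells (ILCs), and the receptor IL22RA1 among epithelial cells, taken as cells with at least 2 UMIs of EPCAM, an epithelial adhesion gene.

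Single-cell RNA sequencing (10x 3' chemistry, version 2) had been run on the distal ileum and blood of 2 healthy mixed-breed pigs aged 7 weeks, labelled female (pig 1) and male (pig 2). From each pig there was 1 library of ileum with Peyer's patches only (PP), 1 without Peyer's patches (non-PP), 1 of the whole ileal cross section and 1 of peripheral blood mononuclear cells (PBMC). Ileal tissue down to the submucosa had been dissociated and the suspension enriched for live lymphocytes, and epithelial, stromal and myeloid cells were few. Each group held 1 library per pig, n = 2 pigs.

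IL22 and the IL17 cytokines are made by lymphoid cells at barrier surfaces in answer to myeloid cytokines such as IL23, which is sensed through IL23R. IL22 is a relative of IL10 that acts on epithelial cells through IL22RA1 paired with IL10RB, and it is known in the gut for inducing antimicrobial and repair genes; IL26 is a neighbouring IL10-family gene that signals through IL20RA paired with IL10RB and is lacking in mice. IL17A and IL17F are closely related cytokines that act through IL17RA and IL17RC and recruit neutrophils.

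On the Sscrofa11.1 assembly, IL26 (ENSSSCG00000039976) lies at chr5:32568189-32583278 beside IL22 (ENSSSCG00000000482) at chr5:32599522-32604507. IL17A (ENSSSCG00000001748) at chr7:46013584-46017161 and IL17F (ENSSSCG00000001749) at chr7:46058371-46066039 are neighbours as well. IL23R (ENSSSCG00000003801) lies at chr6:145337765-145401909 and IL22RA1 (ENSSSCG00000038848) at chr6:81867849-81885017.

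Total UMIs per library ran from 21134542 to 40111934, and median UMIs per cell from 2547 to 3518. After removal of probable doublets 47056 cells remained, 34178 of them ileal, and any pair of libraries shared at most 76 cell barcodes. Cells were clustered without the 6 genes and named from marker genes. The library labelled whole ileum of pig 1, a female, had 207 CPM of Y-linked transcripts (CPM, a gene's UMIs scaled to a fixed total of UMIs over the cells summed), against at most 0.224 CPM in the other 3 libraries of pig 1, and that library therefore went against its label; results were recomputed without it. The recomputed results were tests, and CPM and ratios given for pig 1 as a whole include that library. Intervals on shares of cells are exact Clopper-Pearson 95% intervals, and they cover counting error only.

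Group 3 ILC-like cells were the main place of IL22 transcripts in the ileum. This cluster of 288 cells, 0.843% of ileal cells, held 6966 UMIs, 73.1% of ileal IL22 UMIs. Of its marker genes, KIT was found in 68.4% of its cells and KLRB1 in 83.0%, while the T cell gene CD3E was found in 22.9% and TRDC, the γδ T cell receptor constant gene, in 12.2%. In group 3 ILC-like cells IL22 reached 8542 CPM in pig 1 and 5537 CPM in pig 2, which was 164 and 131 times the level in all other ileal T/ILC-like cells of the same pig. Of the 4200 UMIs behind the pig 1 value, 1338 came from the library labelled whole ileum of pig 1. At least 1 UMI was found in 77.1% of the cells (95% interval 71.8 to 81.8), and in 68.8% after each cell was thinned to 1 depth, the minimum set for a kept cell. In B lineage-like cells, which are not a known source, the share was 1.66% (1.46 to 1.88) and 0.574% after thinning, at a median of 3129 UMIs per cell against 3193 in group 3 ILC-like cells.

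IL22 was unevenly spread within group 3 ILC-like cells. No UMI was found in 66 of the 288 cells, 1 UMI in 25, 2 to 4 in 33, 5 to 19 in 70 and 20 or more in 94. The highest cell held 323 IL22 UMIs, and the 29 highest cells held 50.6% of all IL22 UMIs of the cluster. Of 14515 B lineage-like cells 231 had a single IL22 UMI and 10 had more, at most 8, so no B lineage-like cell reached the 20 UMIs seen in many group 3 ILC-like cells.

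**Figure D1:**
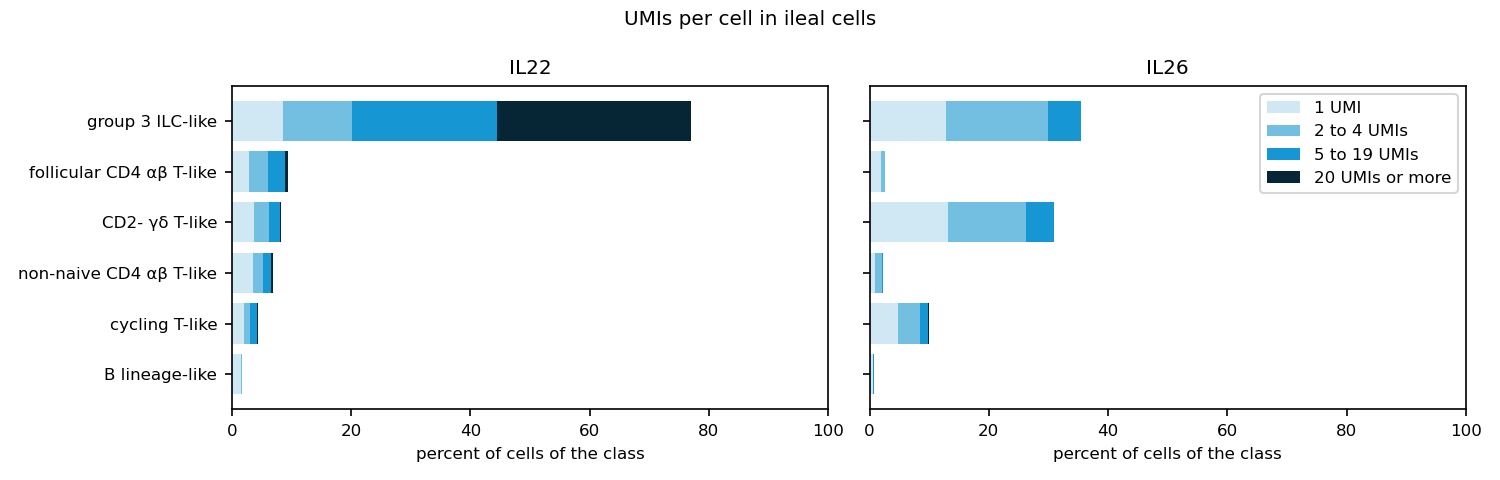
Percent of cells (x axis) with 1, 2 to 4, 5 to 19 or 20 or more UMIs of IL22 (left) and IL26 (right) in 6 ileal classes, all ileal libraries summed. For IL22, 94 of 288 group 3 ILC-like cells held 20 UMIs or more, while positive B lineage-like cells mostly held 1; for IL26, group 3 ILC-like and CD2- γδ T-like cells had similar bars.

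IL17A, IL17F and IL23R transcripts were highest in the same cluster. IL17A stood at 106 CPM in pig 1 and 46.0 CPM in pig 2 and was rare: 75 of the 124 ileal UMIs lay in group 3 ILC-like cells, in 6.94% of them (4.29 to 10.5; 4.06% after thinning). IL17F stood at 179 and 80.1 CPM, in 36 of the 288 cells (7.03% after thinning). IL23R stood at 171 and 116 CPM, in 33.3% (27.9 to 39.1; 15% after thinning). In B lineage-like cells these shares were 0.0689% for IL17A, 0.165% for IL17F and 0.110% for IL23R. Against all other T/ILC-like cells of the same pig the levels were 93.3 and 103 times higher for IL17A, 32.0 and 48.8 times for IL17F and 98.1 and 73 times for IL23R.

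When each T/ILC-like class was set against the average of the rest (edgeR's quasi-likelihood test on sums per pig, Benjamini-Hochberg adjustment), IL22, IL26, IL17A, IL17F and IL23R were called higher in group 3 ILC-like cells, where 9.61% of all tested genes were. IL22RA1 did not pass the filter on low counts. A gene that is low elsewhere can pass that filter through the group where it is high, and then could hardly have been called the other way, so here and in the later comparisons the number of the genes called is a description and no support. The log2 difference was 8.43 for IL22 (SE 0.27, adjusted p = 8.82e-16), 6.70 for IL23R (SE 0.34, adjusted p = 1.53e-12) and 3.93 for IL26 (SE 0.56, adjusted p = 1.87e-05). For IL17A (adjusted p = 1.63e-08) and IL17F (adjusted p = 7.00e-08) several classes had no UMI, so the fitted differences depended on the prior count and the ratios above stand in their place. The classes were drawn from other genes of these same cells, so these p-values describe the difference between clusters and are not an independent test of it.

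**Figure D2:**
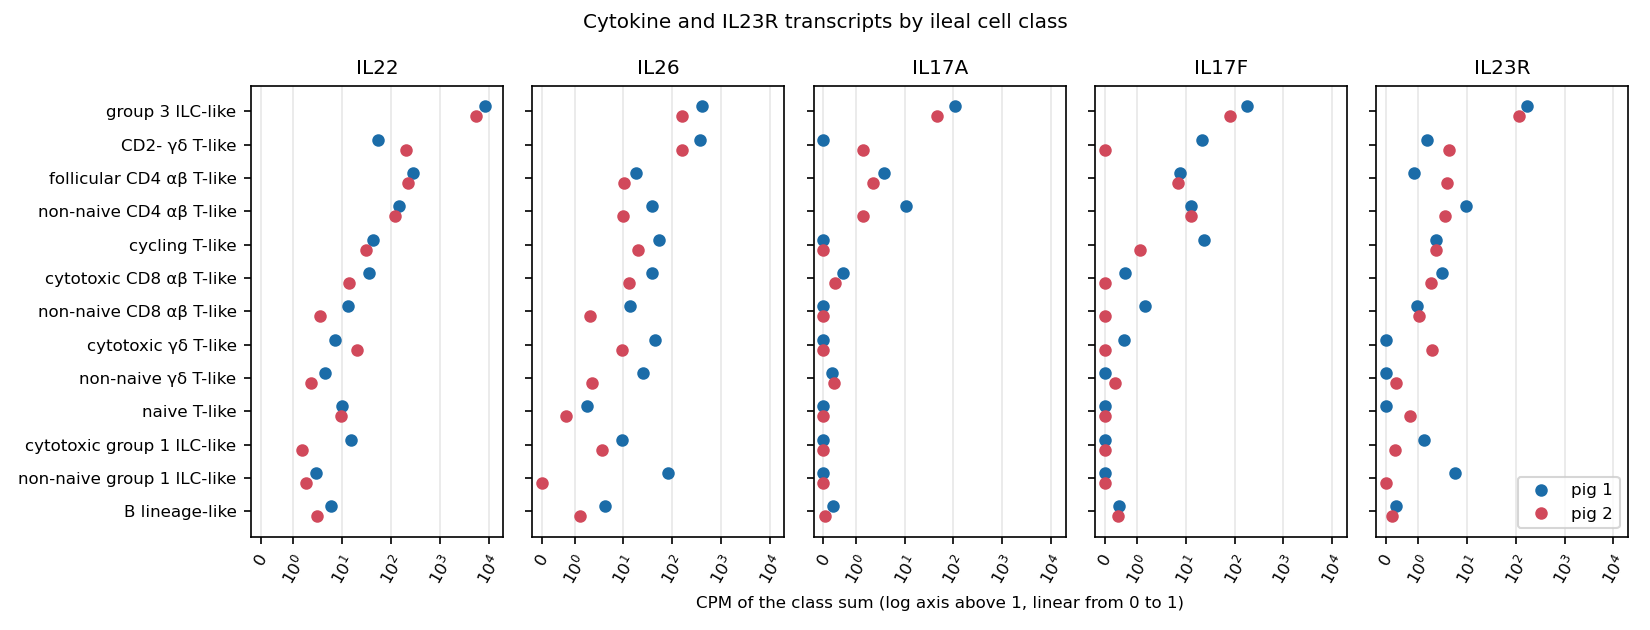
CPM of each gene (x axis, logarithmic above 1 and linear from 0 to 1) in ileal T/ILC-like classes and B lineage-like cells, 1 point per pig. IL22, IL17A, IL17F and IL23R were highest in group 3 ILC-like cells of both pigs (8542 and 5537 CPM for IL22), whereas IL26 was at like levels in CD2- γδ T-like cells.

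IL26 differed from the other cytokines in having 2 classes at like levels. It stood at 417 and 156 CPM in group 3 ILC-like cells of pigs 1 and 2, and at 368 and 157 CPM in CD2- γδ T-like cells, a population of γδ T cells without the adhesion gene CD2 (found in 12.3% of the cells). CD2- γδ T-like cells made up 1.31% of ileal cells and held 356 UMIs, 21.1% of ileal IL26, and 30.9% of them had at least 1 UMI (26.7 to 35.5; 18.8% after thinning) against 0.689% of B lineage-like cells. The group 3 ILC-like share was 35.4% (29.9 to 41.2; 20.9% after thinning). No difference between these classes was found (log2 difference 0.12, 95% interval -1.24 to 1.48, edgeR adjusted p = 0.964), which leaves room for a difference of either sign, and the direction changed when libraries were left out. In pig 2 the likeness rested on 1 library: 72 of the 78 IL26 UMIs of group 3 ILC-like cells came from PP, and in non-PP and whole ileum these cells had 18.2 and 28.0 CPM against 181 and 115 CPM in CD2- γδ T-like cells.

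The other 4 genes separated these classes. Group 3 ILC-like cells exceeded CD2- γδ T-like cells by a log2 difference of 5.72 in IL22 (SE 0.61, edgeR adjusted p = 8.63e-07) and 5.58 in IL23R (SE 0.65, adjusted p = 3.38e-06). The difference was 6.56 in IL17A (SE 0.98, adjusted p = 3.09e-04) and 3.64 in IL17F (SE 0.84, adjusted p = 0.00854), where 5.26% of all tested genes were higher. CD2- γδ T-like cells held 1 IL17A UMI, so the fitted IL17A difference depended on the prior count. All 14 IL17F UMIs of CD2- γδ T-like cells came from 1 cell, and the IL17F call was lost without the library labelled whole ileum of pig 1 (adjusted p = 0.0528), without pig 1's group 3 ILC-like cells (0.117) and in DESeq2 (0.419).

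Against the average of the rest, 2 of the 5 genes were higher in CD2- γδ T-like cells, where 4.99% of all tested genes were: IL26 by 3.81 (SE 0.52, edgeR adjusted p = 3.23e-05) and IL22 by 2.18 (SE 0.43, adjusted p = 0.00204); with pig as a block IL17F was called too (0.00878), all its UMIs being from 1 cell. The IL26 levels by library were 342 CPM in PP of pig 1, 171 in PP of pig 2, 670 and 181 in non-PP, and 112 and 115 in whole ileum. IL26 was thus present in these cells in every ileal library. IL22 in CD2- γδ T-like cells was 65.2 and 77.7 CPM in PP, 17.0 and 485 CPM in non-PP, and 67.4 and 53.2 CPM in whole ileum. The non-PP library of pig 2 stood apart, and 64 of its 115 UMIs came from 1 cell; without pig 2's sum the IL22 difference was 0.83 (adjusted p = 0.649). Against all other T/ILC-like cells of the same pig, which include the group 3 ILC-like cells, IL22 was 0.238 times in pig 1 and 1.17 times in pig 2.

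CD4 αβ T-like cells were the next source of IL22. Follicular CD4 αβ T-like cells, which carry PDCD1 and help B cells in germinal centres, had 277 and 218 CPM and 1038 UMIs, and 9.45% of them had at least 1 UMI (8.13 to 10.9; 7.78% after thinning). In the non-naive CD4 αβ T-like class IL22 stood at 146 and 122 CPM on 388 UMIs, in 6.96% of cells (5.60 to 8.52; 5.17% after thinning). The median was 1920 UMIs per cell in follicular and 2099 in non-naive cells, below that of B lineage-like cells, whose shares were lower. Per cell, 20 UMIs or more of IL22 were found in 9 of 1789 follicular and 5 of 1236 non-naive cells, so strongly positive cells existed in both classes.

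Follicular CD4 αβ T-like cells exceeded the average of the rest in 2 of the 5 genes (13.5% of all tested genes were higher), IL22 by 3.04 (SE 0.34, edgeR adjusted p = 5.44e-07) and IL17A (adjusted p = 0.0110), the latter on 13 UMIs; with pig as a block IL17F was called too (0.00228). Non-naive CD4 αβ T-like cells were higher in 4 of the 5 (12.4% of all tested genes were higher), IL22 by 2.30 (SE 0.38, adjusted p = 1.69e-04), IL23R (95% interval of the log2 difference 0.85 to 3.07, adjusted p = 0.0180), IL17F (adjusted p = 0.00588) and IL17A (adjusted p = 9.29e-04). Against all other T/ILC-like cells of the same pig, group 3 ILC-like cells included, IL22 was 0.658 and 0.682 times in non-naive and 1.31 and 1.27 times in follicular cells. IL17A stood at 10.8 CPM in pig 1 and 1.42 CPM in pig 2 in the non-naive class, and 12 of its 18 UMIs came from 1 cell. IL17F was even between the pigs, at 12.9 and 12.8 CPM, with at most 4 UMIs in a cell. IL23R in the non-naive class rested on 14 UMIs in pig 1 (9.48 CPM) and 5 in pig 2 (3.56 CPM). Against all other T/ILC-like cells of the same pig it was 1.99 times in pig 1 and 0.804 times in pig 2.

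Set directly against non-naive CD4 αβ T-like cells, group 3 ILC-like cells were higher (as were 6.74% of all tested genes) by 5.61 in IL22 (SE 0.59, edgeR adjusted p = 7.97e-07), 4.34 in IL23R (SE 0.50, adjusted p = 2.32e-06), 3.50 in IL17A (SE 0.59, adjusted p = 7.02e-04), 3.42 in IL26 (SE 0.84, adjusted p = 0.00769) and 3.23 in IL17F (SE 0.72, adjusted p = 0.00480). In DESeq2 the calls of IL26 (adjusted p = 0.106) and IL17F (0.422) were lost. The IL26 call was also lost without the library labelled whole ileum of pig 1 (adjusted p = 0.139), without both whole ileum libraries (0.128), and without pig 1's group 3 ILC-like cells (0.178). Without pig 1's group 3 ILC-like cells the IL17F call was lost as well (0.110).

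Other lymphocytes held little IL22, but IL26 was spread over many of them. IL22 stood at 43.5 and 30.2 CPM in cycling T-like cells and at 35.1 and 13.6 CPM in cytotoxic CD8 αβ T-like cells. In cytotoxic γδ T-like cells it stood at 7.22 and 19.7 CPM. IL26 stood at 53.8 and 20.3 CPM in cycling T-like (187 and 35 UMIs), 38.5 and 13.2 CPM in cytotoxic CD8 αβ T-like and 43.4 and 9.37 CPM in cytotoxic γδ T-like cells, with pig 1 above pig 2 in each. In these classes IL26 was above IL22 in pig 1 and below it in pig 2, but the pig 2 order rested on few UMIs. In pig 2, cytotoxic CD8 αβ T-like cells held 36 IL26 and 37 IL22 UMIs. Cytotoxic γδ T-like cells of pig 2 held 10 and 21, and 11 of the 21 came from 1 cell. In pig 1, 1 cell held 68 of the 151 IL22 UMIs of cycling T-like cells. Another held 42 of the 114 of cytotoxic CD8 αβ T-like cells. Of the 5 genes, only IL17F was higher in cycling T-like cells by the test (edgeR adjusted p = 6.49e-04; 20.9% of all tested genes were higher); with pig as a block IL26 was called too (0.0109). That value rested on 1 cell of the non-PP library of pig 1, which held 71 of the 83 IL17F UMIs of the class; without pig 1's sum the log2 difference was 0.22 (adjusted p = 0.769).

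Several of the genes could be found in 1 group 3 ILC-like cell. Of the 288 cells, 43 had none of the 5 genes, 89 had 1, 99 had 2, 42 had 3, 12 had 4 and 3 had all 5. Of 102 cells with IL26, 96.1% also had IL22, against 66.7% of 186 cells without IL26; the median UMI count was 3701 in the former and 2921 in the latter, so depth moved with this difference and its part was not tested. Of 20 cells with IL17A, 8 had IL17F, against 10.4% of 268 without, at median UMI counts of 5532 and 3132. In CD2- γδ T-like cells 23 of 138 cells with IL26 had IL22, against 4.55% of 308 without IL26. None of the 138 had IL17A, IL17F or IL23R. Those genes were found in only 1, 1 and 3 of all 446 cells, too few to read this absence. Shares of cells with 2 genes depend on depth, and IL26-positive cells were the deeper ones here too (median 3090 against 2526 UMIs).

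The genes whose level over classes was most like that of IL22, by Pearson's r of log2(CPM + 1) over 34 sums (class and pig), were IL17A (r = 0.852), CSF2 (0.850), IL23R (0.844), IL17F (0.831) and FURIN (0.821). CSF2, the granulocyte-macrophage growth factor, was also the closest gene to IL17A (0.893) and FURIN, a protease that processes precursor proteins, was among the 5 closest to each of IL22, IL17A, IL17F and IL23R. IL26 had other neighbours, led by TCF25 (0.718) and IL18R1 (0.708), the IL18 receptor chain. The sums share libraries, and a single cluster with high values weighs heavily in each r.

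Among 18 regulators and receptors known in IL22- and IL17-making cells, 17 were tested in group 3 ILC-like cells against the average of the rest; 10 were higher and 1 lower, with a median log2 difference of 0.83 against -0.04 over all tested genes, of which 9.61% were higher and 5.29% lower. Of these 10, IL1R1 (log2 difference 7.30), IL7R (3.75), ID2 (2.01), GATA3 (1.54) and RORA (0.83) stand in marker lists used to name clusters, so their part of the count is no independent result. Outside them, MAF, a transcription factor of cytokine-making lymphocytes, was higher by 2.56 (SE 0.28, edgeR adjusted p = 5.50e-07), IL18R1 by 2.42 (SE 0.15, adjusted p = 5.41e-11) and AHR, the aryl hydrocarbon receptor needed for IL22 production, by 1.79 (SE 0.27, adjusted p = 4.59e-05). IKZF3, a lymphoid zinc finger factor, was lower (-2.45, SE 0.22, adjusted p = 2.03e-08). IL12RB1, the partner chain of IL23R, differed by 1.23 (SE 0.49, adjusted p = 0.104), and none of the 4 receptor chains tested passed. The neutrophil-attracting chemokine CXCL2, listed among epithelial targets of these cytokines, was itself higher in group 3 ILC-like cells by 8.32 (SE 0.28, adjusted p = 2.94e-15).

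The comparison of ileum with blood asked whether circulating cells of the same pigs carried these transcripts. Ileal T/ILC-like cells held 9103 IL22 UMIs and blood T/ILC-like cells held 1. The ileal level was 5991 times that of blood (counting interval 1075 to 2.367e+05). IL26 was found in 1488 ileal and 13 blood UMIs, a ratio of 75.3 (43.9 to 142), and IL23R in 217 and 19 UMIs, a ratio of 7.52 (4.70 to 12.7). These counting intervals pool the UMIs of both pigs and do not measure the spread between pigs or cells. No UMI of IL17A or IL17F was found in blood T/ILC-like cells, which puts the ileal level at least 24.6-fold higher for IL17A and at least 65.6-fold higher for IL17F against a floor of 3 counts over both blood libraries. In sums of this kind, fewer cells of a type and less RNA per cell cannot be told apart.

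The genes were called higher in ileal T/ILC-like cells, as were 12.1% of all tested genes: IL22 with adjusted p = 6.21e-04, IL26 with 0.00701, IL17F with 0.0152, IL17A with 0.0172 and IL23R with 0.0458, by edgeR. With no UMI in blood, IL17A and IL17F entered this test through ileum and could hardly have been called the other way. Their calls are a description, and the bounds above stand in place of fitted differences. The IL23R call held under 5 of 11 alternatives and was lost without the library labelled whole ileum of pig 1 (adjusted p = 0.0578) or both whole ileum libraries (0.0598), with uncorrected principal components (0.0531) or doublets kept (0.0527), and without the ileal sum of pig 1 (0.223) or pig 2 (0.171). The IL17A call was lost without the sum of pig 1 (0.119) or pig 2 (0.0548), and that of IL17F without pig 1 (0.0761). No blood cluster carried the markers of group 3 ILCs, and blood had not gone through tissue dissociation; tissue and preparation cannot be told apart. CD2- γδ T-like cells, which were named alike in both tissues, had 356 IL26 UMIs in ileum and 0 in 648 blood cells, and 182 and 0 of IL22, that is at least 127.5-fold and 65.2-fold higher. Of the 182 IL22 UMIs 115 came from the non-PP library of pig 2, and without it the bound was 29.0-fold. The edgeR adjusted p was 3.05e-05 for IL26 and 9.17e-04 for IL22 (8.13% of all tested genes were higher); with no UMI in blood, both genes entered the test through ileum.

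The dissections asked whether ileum with Peyer's patches differed from ileum without. IL22 in all T/ILC-like cells was 370 and 359 CPM in PP, 99.9 and 62.2 CPM in non-PP, and 207 and 157 CPM in whole ileum of pigs 1 and 2. Both PP libraries lay above, and both non-PP libraries below, the whole ileum libraries. PP exceeded non-PP by a log2 difference of 2.16 (SE 0.27, edgeR adjusted p = 0.00955), where 2.14% of all tested genes were higher. With the PP library of pig 1 left out the difference was 2.19 (adjusted p = 0.0595), and without that of pig 2 it was 2.15 (adjusted p = 0.0555).

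**Figure D3:**
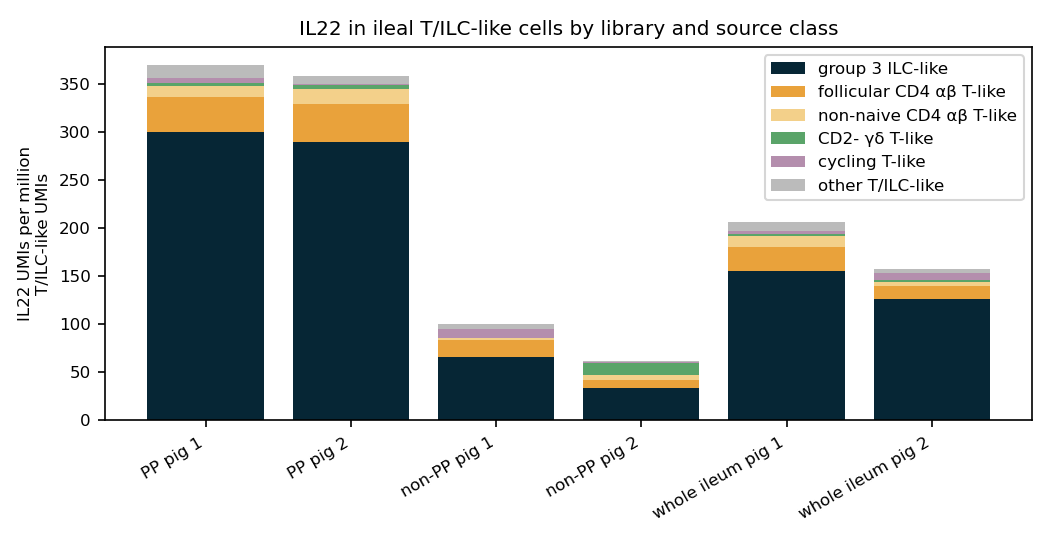
IL22 CPM of all T/ILC-like cells (y axis) in each ileal library, stacked by the class the UMIs came from. PP libraries reached 370 and 359, non-PP libraries 99.9 and 62.2, and group 3 ILC-like cells gave the largest piece of each bar (54.8% to 81.0%).

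Of the 5 genes, IL22 alone was called between PP and non-PP. IL17A stood at 6.20 and 2.70 CPM in PP and 1.67 and 0.955 CPM in non-PP, a difference that was not called (log2 difference 1.76, SE 0.54, edgeR adjusted p = 0.141, or 0.0283 with pig as a block). Of the 47 IL17A UMIs in PP of pig 1, 1 non-naive CD4 αβ T-like cell and 1 group 3 ILC-like cell held 12 each. IL23R differed by 0.85 (95% interval 0.26 to 1.45, adjusted p = 0.192), IL17F by 0.77 (-0.76 to 2.31, adjusted p = 0.663) and IL26 by 0.71 (-0.72 to 2.14, adjusted p = 0.669). For IL26, PP had 71.5 and 28.6 CPM and non-PP 50.8 and 9.02 CPM. PP was thus above non-PP within each pig, but pig 1 was above pig 2 in both dissections, and the dissections overlapped across pigs.

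The makeup of T/ILC-like cells moved with the dissection. Group 3 ILC-like cells were 2.30% and 2.80% of them in PP, 0.909% and 1.74% in non-PP, and 1.59% and 2.17% in whole ileum; follicular CD4 αβ T-like cells were 20.8% and 17.3%, 5.24% and 6.07%, and 12% and 11.5%. Group 3 ILC-like cells held 81.0% and 80.8% of T/ILC-like IL22 UMIs in PP, 65.6% and 54.8% in non-PP, and 75.1% and 80.3% in whole ileum. The part of this makeup in the IL22 difference was not tested. Levels within classes were compared instead, a choice made after the values were seen.

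Within group 3 ILC-like cells IL22 was 11400 and 8024 CPM in PP (51 and 63 cells), 4999 and 1943 CPM in non-PP (29 and 56 cells), and 7673 and 5798 CPM in whole ileum (47 and 42 cells). Cells with at least 1 UMI made up 84.3% and 88.9%, 69.0% and 62.5%, and 87.2% and 64.3%. The log2 difference of PP from non-PP was 1.46 (SE 0.34) and did not pass over all genes (edgeR adjusted p = 0.181). Of all tested genes, 0.217% were called in either direction. The difference was called with pig as a block (edgeR adjusted p = 0.0226) and in DESeq2 (0.0307). Of 11 alternatives 7 gave the same result, and the difference ranged from 1.17 to 1.66. IL23R in the same cells was 206 and 110 CPM in PP and 161 and 133 CPM in non-PP, a difference of 0.07 (95% interval -0.63 to 0.77, adjusted p = 1.00).

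**Figure D4:**
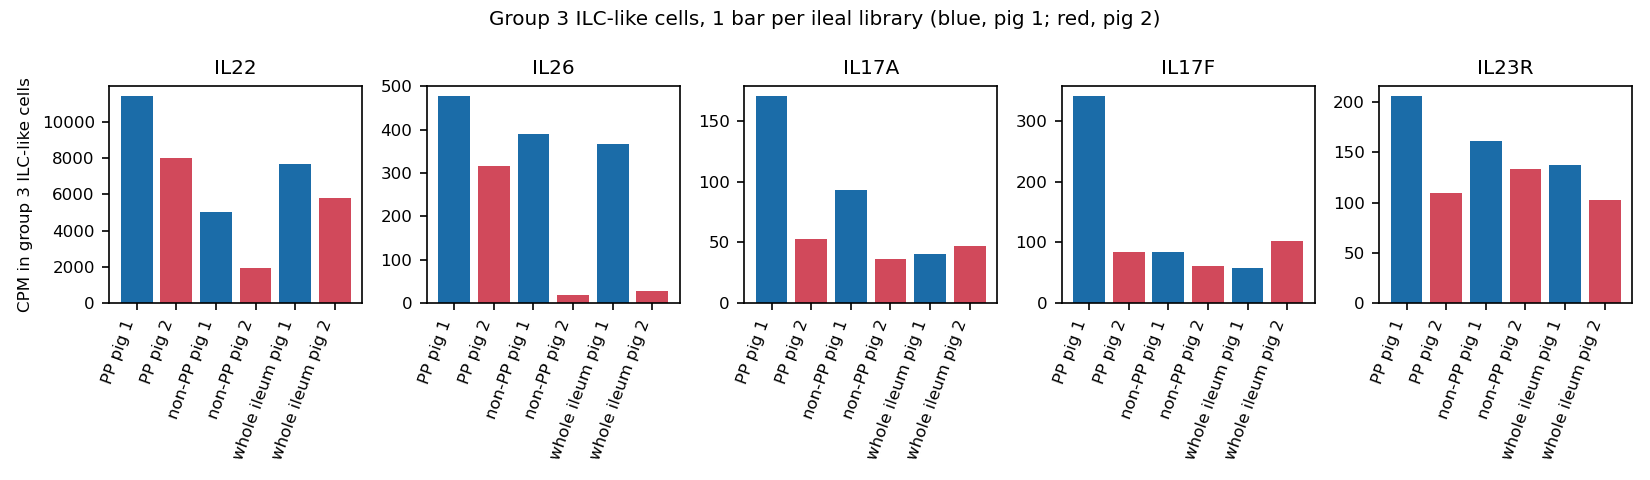
CPM of 5 genes (y axes differ) in group 3 ILC-like cells, 1 bar per ileal library, on 29 to 63 cells each. IL22 was highest in PP (11400 and 8024 CPM) and lowest in non-PP of pig 2 (1943 CPM); IL26 was low in non-PP and whole ileum of pig 2 (18.2 and 28.0 CPM).

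T/ILC-like cells other than group 3 ILC-like had 72.2 and 71.5 CPM of IL22 in PP, 34.8 and 28.6 CPM in non-PP and 52.6 and 31.6 CPM in whole ileum. PP was higher by 1.19 (SE 0.24, edgeR adjusted p = 0.0468; 2.16% of all tested genes were higher), a call that was lost without the PP library of pig 1 (adjusted p = 0.197) or pig 2 (0.168) and with uncorrected principal components (0.0659). Within CD4 αβ T-like cells, follicular and non-naive together, the difference was -0.09 (95% interval -0.83 to 0.65, adjusted p = 0.934; 4.34% of all tested genes were called in either direction). In cells at 2000 UMIs or more it was 1.04 (adjusted p = 0.163). Follicular cells had 235 and 291 CPM in PP, 399 and 166 CPM in non-PP and 279 and 141 CPM in whole ileum, so the dissections overlapped. Whether the PP difference was larger in group 3 ILC-like than in CD4 αβ T-like cells was tested directly and not called (1.58, SE 0.57, edgeR adjusted p = 0.531; 0.139% of all tested genes were called in either direction).

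IL26 in group 3 ILC-like cells was highest in PP of each pig, but its difference from non-PP was not called (log2 difference 1.04, SE 0.89). The order of non-PP and whole ileum differed between the pigs. IL26 was 477 and 317 CPM in PP, 390 and 18.2 CPM in non-PP and 367 and 28.0 CPM in whole ileum, where both low values rest on 3 UMIs. The high library labelled whole ileum of pig 1 was the one whose Y-linked transcripts went against its label. IL17F was 341 CPM in PP of pig 1 and between 57.4 and 103 CPM in the other 5 ileal libraries. A single cell of that PP library held 34 IL17F and 12 IL17A UMIs, the most of either gene in the class.

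IL22RA1, the chain that makes a cell responsive to IL22, was found mainly in epithelial cells. The 633 epithelial cells held 94 of 111 ileal UMIs, at 16.8 CPM in pig 1 and 8.81 CPM in pig 2, against 0.199 and 0.0969 CPM (7 UMIs) in T/ILC-like cells. Of 14515 B lineage-like cells 16 had 1 IL22RA1 UMI each, and some of these were also counted as epithelial by the EPCAM rule. By library, IL22RA1 in epithelial cells stood at 12.6 and 10.6 CPM in PP, 19 and 13.8 CPM in non-PP, and 21.2 and 3.93 CPM in whole ileum. At least 1 UMI was found in 13.3% of epithelial cells (10.7 to 16.2), at a median of 10150 UMIs per cell. After thinning the share was 2.02%, against 0.0252% in T/ILC-like cells. Epithelial cells exceeded T/ILC-like cells by 6.35 (SE 0.58, edgeR adjusted p = 5.15e-04; 27.4% of all tested genes were higher).

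By epithelial cluster, IL22RA1 was found in 28 of 195 cells led by FABP2 and FABP6, genes of absorptive cells (14.4%, 9.76 to 20.1), in 21 of 152 cells led by TFF2 and TFF3, trefoil factors of secretory cells (13.8%, 8.76 to 20.3), and in 29 of 229 cells led by SPAI-2 and OLFM4 (12.7%, 8.65 to 17.7). The intervals overlapped widely, but they pool unlike libraries and the clusters differed in depth. Median UMIs per cell were 10570, 7532 and 12550 in the order given, and IL22RA1 stood at 16.6, 18.8 and 10.9 CPM. The part of depth in these shares was not tested. In the SPAI-2 and OLFM4 cluster IL22RA1 was found in 1 of 72 cells in whole ileum of pig 2 and in 9 of 39 in whole ileum of pig 1. None of 26 cells led by the hormone genes PYY and CHGA had a UMI, for which the upper limit of the interval was 13.2%. These cells had the lowest median of the clusters, 5308 UMIs per cell. PP and non-PP epithelial cells differed by -0.59 in IL22RA1 (95% interval -1.84 to 0.67, edgeR adjusted p = 1.00; 0.0287% of all tested genes were called). The FABP2 cluster came mostly from non-PP (133 and 55 of 195 cells in pigs 1 and 2) and the SPAI-2 and OLFM4 cluster from the other dissections, so dissection and epithelial type cannot be told apart.

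The partner chains had other patterns. IL10RB, shared by the IL22, IL26 and IL10 receptors, was at 41.6 and 41.5 CPM in epithelial cells, 37.2 and 38.4 CPM in T/ILC-like cells and 84.2 and 66.7 CPM in myeloid-like cells (epithelial against T/ILC-like 0.12, SE 0.16, edgeR adjusted p = 0.554). IL20RA, the other chain of the IL26 receptor, was higher in epithelial than in T/ILC-like cells by 6.88 (SE 0.72, adjusted p = 8.76e-04). The IL17 receptor chains went opposite ways: IL17RC was higher in epithelial cells by 2.37 (SE 0.42, adjusted p = 0.00611) and IL17RA lower (-3.39, SE 0.30, adjusted p = 5.02e-04). Of the 11 listed receptor chains, 6 were tested, 2 were higher and 3 lower, where 27.4% of all tested genes were higher and 24.5% lower. IL22RA2, the soluble receptor that blocks IL22, was found at 22.9 and 21.6 CPM in myeloid-like cells, with 0 UMIs in epithelial, B lineage-like and stromal-like cells.

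**Figure D5:**
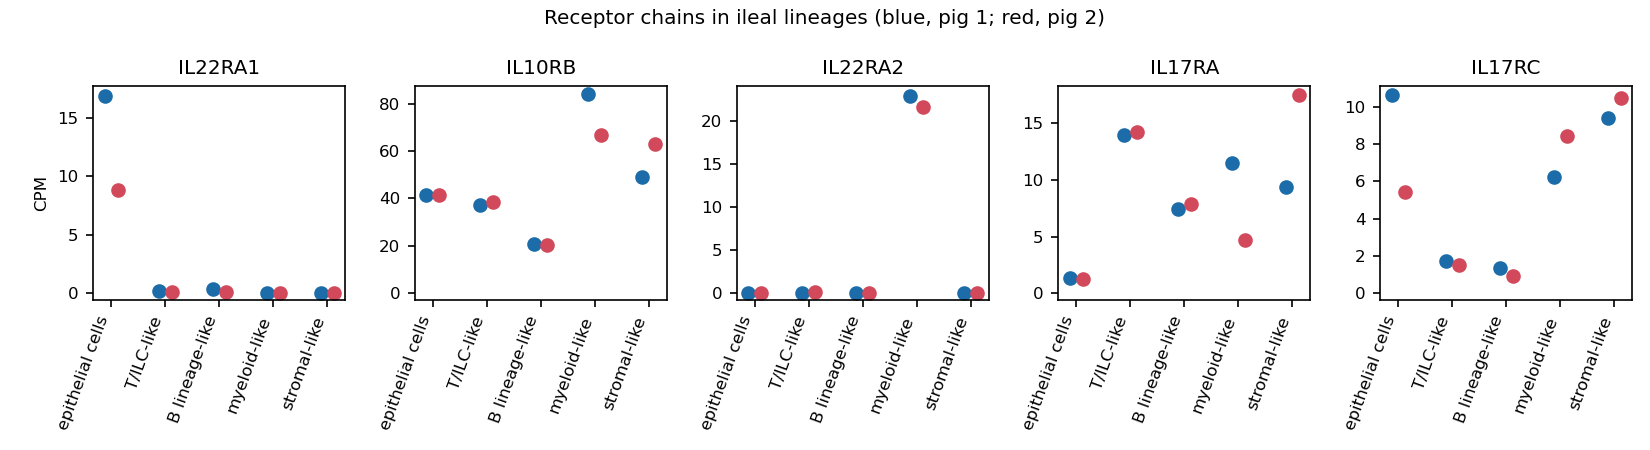
CPM of receptor chains (y axes differ) in ileal lineages, 1 point per pig. IL22RA1 was at 16.8 and 8.81 CPM in epithelial cells and near 0 elsewhere, IL22RA2 was found in myeloid-like cells (22.9 and 21.6 CPM), and IL10RB was found in all 5 lineages.

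Of 34 genes listed as epithelial targets of IL22 or IL17, 22 were tested between epithelial and T/ILC-like cells; 16 were higher in epithelial cells and 2 lower, with a median log2 difference of 4.73 against -0.06 over all genes, of which 27.4% were higher and 24.5% lower. The list was made of genes known from epithelium. PIGR, which carries IgA across the epithelium, was higher by 8.83 (SE 0.30, edgeR adjusted p = 1.38e-04), CCL28, a chemokine for IgA cells, by 8.03 (SE 0.37, adjusted p = 1.38e-04) and FUT2, which fucosylates surface glycans, by 7.95 (SE 0.43, adjusted p = 1.44e-04). Between PP and non-PP epithelial cells 19 were tested and 0 were called, where 0.0287% of all tested genes were, so the count says nothing of the list; CCL28 differed by 1.64 (SE 0.33, adjusted p = 0.281) and PIGR by 1.13 (SE 0.37, adjusted p = 0.911).

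Cytokines known to induce IL22 and IL17 were found in other lineages. IL18 was at 455 and 203 CPM in myeloid-like cells and 64.6 and 28.5 CPM in epithelial cells. IL23A, the subunit particular to IL23, was at 13.5 and 1.88 CPM in myeloid-like cells on 15 UMIs, and IL1A was found there in 24 and 13 UMIs. IL6 was at 32.8 and 62.8 CPM in stromal-like cells, and TNFSF15, a TNF-family cytokine, at 27.2 and 44.9 CPM in epithelial cells. Myeloid-like and stromal-like cells were few in these lymphocyte-enriched preparations.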

How the data were processed

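Single-cell RNA libraries of the ileum and blood of 2 pigs were analysed; the labels list 32 samples, 4 runs for each of 8 libraries. The deposited values were raw UMI counts per gene and cell barcode, made by the authors with Cell Ranger (4.0.6 in the submitters' processing notes) against Sscrofa11.1; the matrices also held barcodes with few UMIs, and no per-sample column was left unused. Cells were kept at the thresholds given above, probable doublets (Scrublet score above 0.25 in scanpy 1.11.5) were removed, and 30 principal components of 3000 variable genes without the 6 genes, corrected for library, were clustered (Leiden, resolution 3 for ileum and 1.5 for blood). Clusters were named from marker lists; 2951 ileal cells stayed unnamed. Counts of each class were added up within a pig or a library and tested with edgeR 4.0.16 (TMM, filterByExpr, quasi-likelihood, all groups of a comparison in 1 fit, Benjamini-Hochberg over all tested genes, threshold 0.05); DESeq2 1.42.0 was an alternative. CPM were computed from the summed counts. Each pig is a replicate in the class and tissue fits, and each library in the dissection fits. The spread was estimated over all groups of a fit. The main fits had no pig term, so same-pig sums were entered as independent. The p-values thus do not measure the spread between the 2 animals within 1 group. Both whole ileum libraries carried Y-linked transcripts (207 and 226 CPM), so whether they came from 2 animals is not known. On simulated counts of the group 3 comparison (8244 genes), 197 of 200 genes changed 4-fold were called, and 14 unchanged genes. The changed genes were drawn above a minimum mean level, and no difference between pigs was simulated. The simulation therefore does not speak for low-count genes or for paired sums.

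Members, gene lists and markers were chosen with earlier results of these data known. Genes named are the 6 members, their partner chains, and listed pathway genes that passed the test; AHR, IL12RB1, CXCL2 and values of lists without a call were named after their values were seen. Of the lists, IL17RE, IL1B, REG3A, REG3G, MUC1, MUC4, MUC20 and SAA3 were not among the symbols used here. Same-pig sums come from the same animal and are paired: correlations of deviations from group means were at least 0.0572 (median 0.219) over 132 class pairs, 0.366 for ileum and blood, 0.224 for CD2- γδ T-like cells, 0.256 for epithelium, and -0.0507 at the lowest over 6 pairs of dissections; the library labelled whole ileum of pig 1 may not belong to its pair. Alternatives were another scaling, filter, pig as a block, depth, clustering, doublets, EPCAM rule and leaving out pigs or whole ileum libraries. A pig left out means that its sum or library of the first-named group was dropped, while its other sums stayed in. Comparisons of PP with non-PP within classes, epithelial clusters in place of the EPCAM rule the removal of the highest cell of each class and the bound of IL22 without 1 library were chosen after seeing the data.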

Additional observations from a re-analysis of the deposited data

Results flagged for a closer look

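Of 15 sets of 6 ileal library values tested for 1 value far from the rest, 3 were singled out; chance alone singles out about 1 in 20. IL17A in all T/ILC-like cells was 6.20 CPM in PP of pig 1, far above the other ileal libraries. Of its 47 UMIs there, 1 non-naive CD4 αβ T-like cell and 1 group 3 ILC-like cell held 12 each. IL17F in group 3 ILC-like cells was 341 CPM in the same library, where 1 cell held 34 UMIs. IL22 in CD2- γδ T-like cells was 485 CPM in non-PP of pig 2, where 1 cell held 64 UMIs.

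Barcodes with fewer than 100 UMIs, which hold RNA from outside cells and entered no comparison, carried IL22 in every ileal library: 160 and 133 CPM in PP, 51.9 and 27.6 CPM in non-PP, and 96.6 and 42.7 CPM in whole ileum of pigs 1 and 2, against at most 3.48 CPM in blood. The B lineage-like share of 1.66% is the background these levels were read against in the report. IL22 in such barcodes was higher in PP than in non-PP, as was IL22 in T/ILC-like cells. Its part in that difference was not tested.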

How the results depend on the processing

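Of 101 alternatives to the counts of called genes and other main values, 90 gave a like result. A count was taken as like within a set fold of the main count, whichever genes were called. By this rule 17 pairs against 14 were alike. IL22RA1 differences of epithelial cells had to keep direction and call, and a share had to stay within its interval. Of 481 alternatives for single genes, 434 kept direction and call, 26 lost the call, 9 gained one, 11 changed direction and 1 bound moved. The number of gene and class pairs above the average of the rest was 14; leaving out 1 pig's sum of the class gave 9 to 13. For group 3 ILC-like against non-naive CD4 αβ T-like cells, 5 genes were called, 3 in DESeq2 and 3 to 5 with a pig left out; for ileum against blood, 5, and 2 to 3 with a pig left out. For PP against non-PP, 1 gene was called, 3 without the filter on low counts (adding IL17A and IL26), 2 with pig as a replicate block (adding IL17A) and 0 with either PP library left out. With the paired block, 17 pairs were called over the classes (the 14 and 3 more, given above) and IL22RA1 differed between epithelial and T/ILC-like cells by 6.35. Among differences recomputed gene by gene, the block added the IL17A call just given. It also added that of IL22 between PP and non-PP within group 3 ILC-like cells (edgeR adjusted p = 0.0226), and no other call among them changed. Without the filter on low counts IL22 within group 3 ILC-like cells (edgeR adjusted p = 2.99e-17) and its difference from CD4 αβ T-like cells (7.66e-07) were called too. The log2 difference of IL22 within group 3 ILC-like cells ranged only from 1.17 to 1.66 over all alternatives. The share of all genes called without the filter is not given here, so calls gained that way, IL17A and IL26 above included, are a description and no support. IL17F within group 3 ILC-like cells was called without the PP library of pig 2, which leaves 1 PP library. IL22 in group 3 ILC-like cells was found in 68.8% at a thinned depth and in 68.4% at 2 UMIs or more, against 77.1%.

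Directions that changed were all of uncalled differences, and the cause was not tested. IL26 in group 3 ILC-like against CD2- γδ T-like cells became -0.034 without the library labelled whole ileum of pig 1 and -0.0060 without both whole ileum libraries. It was -0.71 to 0.64 with the group 3 ILC-like sum of 1 pig left out. Between PP and non-PP, IL26 in T/ILC-like cells was -0.048 to 1.20 and IL17A in group 3 ILC-like cells -0.19 to 1.41 with 1 PP library left out. Both were below 0 without the PP library of pig 1, while the non-PP library of pig 1 stayed in. IL23R in group 3 ILC-like cells became -0.021 at lower clustering resolution, -0.011 with doublets kept, and -0.37 to 0.44 with 1 PP library left out. IL22 in CD4 αβ T-like cells became 0.0056 with the block, -0.27 to 0.080 with 1 PP library left out, and 1.04 in cells at 2000 UMIs or more. IL17A, IL17F and IL22RA1 rest on 124, 333 and 111 ileal UMIs, which limits their comparisons.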
